A study of Mus musculus with 2 samples.

Results

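The genes described here are the transcription factors of the MYC, MAX and MXD network in granulocyte-monocyte progenitors (GMPs), which in BM give rise to granulocytes and monocytes. The members were chosen by name, by a rule that did not use their values, but with earlier results of these data known. They are the rows of Myc, Mycn, Mycl, Max, Mxd1, Mxd3, Mxd4, Mxi1, Mnt and Mga. All 10 were found among the 24421 gene symbols in the data. RNA was measured by bulk RNA-Seq in 1 library of GMPs from female non-tumor-bearing (NTB) mice, the control (NTB-GMP), and 1 library of GMPs from female mice bearing an orthotopic 4T1 tumor (4T1-GMP). The 4T1 line is a mouse mammary carcinoma. Both groups were labelled as F1 semi-syngeneic mice (H-2b/d), were 8 to 12 weeks old, and had their GMPs purified by flow cytometry, and the number of mice behind a library was not given. With 1 library per group, no difference below has a replicate check, no p-value is given, and mouse, library and tumor cannot be told apart.

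MYC proteins bind DNA only as partners of MAX, at a short sequence called the E-box (CACGTG), where they recruit histone acetyltransferases and promote growth, ribosome production and division. The MXD proteins (MXD1, MXD3, MXD4 and MXI1), MNT and MGA also pair with MAX and bind the same sequence, but bring in corepressors. The balance among MAX partners is thus a classical readout of progenitor growth against maturation. In the granulocyte lineage, Myc is known as a gene of dividing progenitors and Mxd1 as a gene of maturing cells.

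Values are reads scaled to gene length and library size (RPKM) and can be compared between genes. The reads behind them were recovered as whole numbers, which for some genes are too low by a factor common to both libraries. The library sizes that the RPKM imply were 10180365 for NTB-GMP and 30016263 for 4T1-GMP. These are not whole numbers of reads before rounding, so they may hold a normalization factor that the sources used here do not give, and the values for Rn45s rest on them. Rn45s, the ribosomal RNA precursor, took 17.0% and 7.0% of these sizes, and leaving it out would shift every log2 ratio by -0.16. Intervals are 95% intervals on reads and cover counting error only, since PCR reads without molecular identifiers are not independent molecules. The 10378 genes with a mean of at least 1 RPKM are called expressed genes. Differences at low levels are understated on the log2(RPKM + 0.1) scale used for lists and thresholds, on which their median log2 ratio of 4T1-GMP over NTB-GMP was 0.05.

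The label of the cells was set against marker genes. The granule enzyme genes Mpo (5163 RPKM in NTB-GMP and 5625 in 4T1-GMP) and Elane (1853 and 2935) were abundant. Of the 12 GMP genes, all expressed, 8 were higher and 4 lower in 4T1-GMP, and their sums were 10749 and 16501 RPKM. The GMP marker gene Ms4a3 was higher (479 and 1220 RPKM). Among genes of surface proteins used to define GMPs, Kit (78.5 and 49.1), Cd34 (154 and 59.4) and Fcgr3 (53.1 and 28.6) were lower. Fcgr2b, another of these genes, was higher (47.3 and 64.6 RPKM), and Cebpa was lower. Ly6a, which encodes the stem cell antigen Sca-1, was at 0 and 0.266 RPKM. All 14 mature neutrophil genes were higher in 4T1-GMP, with a summed level of 525 RPKM in NTB-GMP and 4124 in 4T1-GMP, and Stfa2l1 was at 0 in NTB-GMP. Of the 14, Stfa2l1, Ly6g, Mmp8 and Mmp9 reached the minimum for expressed genes only through 4T1-GMP. Of the 9 expressed monocyte and dendritic genes, 8 were lower, with sums over the whole list of 12 of 292 and 119 RPKM. Cx3cr1, among the 8, reached the minimum only through NTB-GMP. The 6 basophil and mast cell genes were all lower (455 and 188 RPKM), as were the 4 expressed erythroid and megakaryocyte genes. Of these 4, Gata1, Klf1 and Gp9 reached the minimum only through NTB-GMP. No lymphoid marker exceeded 0.282 RPKM, and the 5 epithelial genes had sums of 18.3 and 10.1 RPKM. Among these, Epcam and Krt14 were at 0 in both libraries, Krt8 had 1 and 6 reads, and Krt18 (12.8 and 8.90 RPKM) and Cdh1 (5.36 and 1.04) were lower in 4T1-GMP. In bulk RNA, fewer cells of a type and less RNA per cell cannot be told apart.

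Myc was the most abundant member in both libraries. In each library the order from the top was Myc, Max, Mga, Mxd4 and, at the bottom, Mxd3, Mycl and Mycn. The intervals of Mga and Mxd4, of Mxi1 and Mnt and of Mxd3 and Mycl overlapped in NTB-GMP, and those of Mxd4 and Mxi1 and of Mycl and Mycn in 4T1-GMP. These neighbors were thus not separated by the intervals, which are widened where recovered reads are too low. Genes of the MXD group went in opposite directions: Mxd1 and Mxi1 were higher in 4T1-GMP, Mxd4 was lower, and Mxd3 was higher within its counting error. Myc, Mnt and Mga were lower by less than 2-fold, Max was close to level, and Mycl and Mycn, already scarce in NTB-GMP, were lower still. Of the 8 members that were expressed, 4 were higher and 4 lower in 4T1-GMP, while 54.7% of all expressed genes were higher and 45.3% lower. The 4 higher include Mxd3, which reached the minimum only through 4T1-GMP, where it is higher. The median log2 ratio of the 8 was -0.13, that of the 7 without Mxd3 (a minimum of 5 RPKM) was -0.32, and that of all 10 was -0.34. Only Mxd1 passed 2-fold among the 8, and 8.17% of expressed genes did so, 3.25% higher and 4.92% lower. At 1.5-fold, Mxd1 and Mxi1 were past the threshold on the higher side and Mxd4 and Mnt on the lower, beside 9.8% and 11.6% of expressed genes, 21.4% in all. Mxd3 was past it too, but its interval included no difference.

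**Figure D1:**
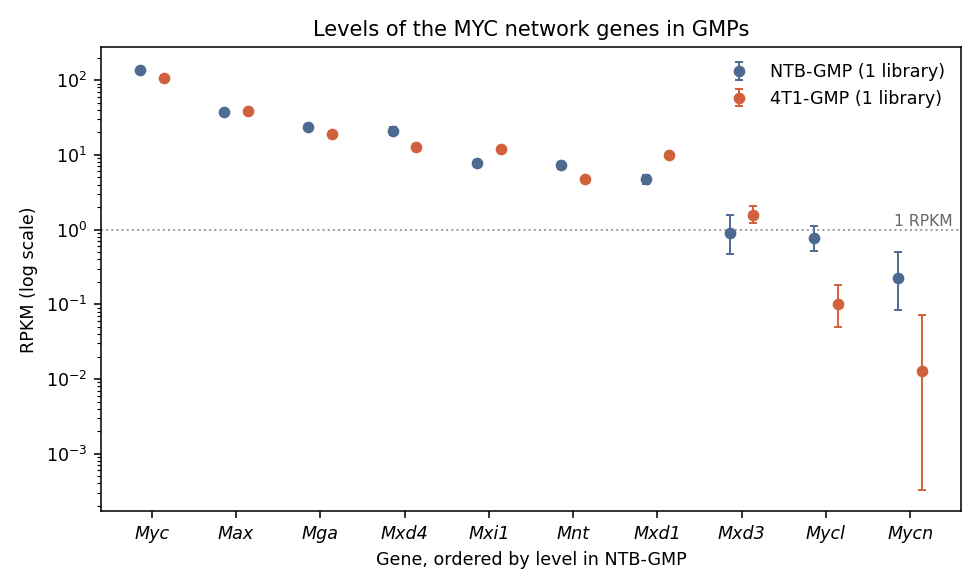
Level of each member in RPKM on a log axis in NTB-GMP (blue) and 4T1-GMP (orange), with exact Poisson intervals on the reads of the single library of each group. Myc lies above 100 RPKM in both libraries, and Mycl and Mycn lie below 1 RPKM in both.

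Myc, on chromosome 15 from 61985391 to 61990374 (GRCm38, plus strand), encodes the MYC protein that drives growth and division in most progenitors. Its level was 138 RPKM from 3382 reads in NTB-GMP and 108 RPKM from 7747 reads in 4T1-GMP. The level in NTB-GMP was thus 1.29 times that in 4T1-GMP (interval 1.24 to 1.34), a log2 ratio of -0.36. Even so, Myc stayed among the most abundant transcripts, above 96.8% of expressed genes in NTB-GMP and 94.5% in 4T1-GMP. Its log2 ratio lay between -0.63 and -0.36 under every other scaling and pseudocount tried. The noncoding neighbor of Myc, Pvt1, was named after its values were seen and had 0.703 and 1.27 RPKM (22 and 117 reads).

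The other MYC genes were scarce. Mycl, on chromosome 4 from 122995652 to 123002485, encodes L-MYC, which is known from dendritic cells and their progenitors. Its 29 reads in NTB-GMP gave 0.777 RPKM and its 11 reads in 4T1-GMP gave 0.10 RPKM, 7.77-fold lower in 4T1-GMP with an interval of 3.77 to 17.2. Dendritic and monocyte genes moved the same way beside it, including Irf8 (32.0 and 4.45 RPKM), Cd74 (42.3 and 4.85) and H2-Aa (21 and 1.75), and their part in the Mycl difference was not tested. Mycn, on chromosome 12 from 12936093 to 12941914, encodes N-MYC, known from stem cells and the developing nervous system. It had 6 reads in NTB-GMP (0.227 RPKM) and 1 read in 4T1-GMP (0.0128 RPKM). The ratio of NTB-GMP over 4T1-GMP was 17.7 with an interval of 2.15 to 814, so its size was hardly set by these reads. Both genes were below the minimum for expressed genes and were not counted with the 8. The list of 10 stem and early progenitor genes, which includes Mycn, had sums of 109 and 67.0 RPKM. Of its 5 expressed genes, 4 were lower, among them Flt3 (12.6 and 2.34 RPKM) and Meis1 (17.1 and 4.73), and Hoxa9 was higher (10.1 and 10.5). Procr, Slamf1 and Ly6a, below the minimum, were higher, with 3, 2 and 0 reads in NTB-GMP. The part of these genes in the Mycn difference was not tested.

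Max, on chromosome 12 from 76937269 to 76962201, encodes the partner shared by the other proteins of the network. Its level was 37.3 RPKM from 761 reads in NTB-GMP and 38.9 RPKM from 2340 reads in 4T1-GMP. The log2 ratio was 0.06 with an interval of -0.06 to 0.18, so a difference larger than 1.13-fold in either direction lay outside the counting interval. The sign was not stable, since the log2 ratio was -0.10 without Rn45s in the library sizes and -0.10 after quantile normalization. Set against the summed RPKM of its 9 partners in the network, the level of Max was 18.2% in NTB-GMP and 23.2% in 4T1-GMP.

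Within the MXD group, Mxd1 showed the largest difference. Mxd1, on chromosome 6 from 86647042 to 86669161, encodes the repressor first known as MAD1. With 224 reads it stood at 4.72 RPKM in NTB-GMP, and with 1402 reads at 10.02 RPKM in 4T1-GMP, 2.12-fold higher with an interval of 1.84 to 2.46. This difference was above that of 97.2% of expressed genes, and Mxd1 moved from the seventh to the sixth place among members. On the log2(RPKM + 0.1) scale the ratio was 1.07, and it dropped just under 2-fold with Rn45s left out (0.91) or with a pseudocount of 1 (0.95). The mature neutrophil genes listed above were higher in the same library by a median log2 ratio of 3.0. This median includes Stfa2l1, Ly6g, Mmp8 and Mmp9, which were expressed only through 4T1-GMP. The part of the mature neutrophil genes in the Mxd1 difference was not tested.

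Mxi1, on chromosome 19 from 53310518 to 53375810, encodes a repressor of the same group, and was higher in 4T1-GMP by 1.57-fold (interval 1.41 to 1.74), from 7.67 RPKM (439 reads) to 12.03 RPKM (2029 reads). Mxd3, on chromosome 13 from 55325168 to 55329823, is known in dividing cells in S phase. NTB-GMP held 12 of its reads (0.907 RPKM) and 4T1-GMP 62 (1.59 RPKM), and its interval of 0.94-fold to 3.57-fold included no difference. Mxd3 passed the minimum for expressed genes only through 4T1-GMP. Its exons overlap those of Prelid1 on the opposite strand (105 and 164 RPKM), exons of Mxi1 overlap Gm10197 and exons of Mxd4 overlap the antisense gene Gm42846. Whether reads were counted by strand is not given in the sources used here, and without strand such reads cannot be told apart.

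Mxd4 moved the other way. This gene, on chromosome 5 from 34173883 to 34187720, was the most abundant of the group in NTB-GMP, with 21 RPKM (252 reads) against 12.8 RPKM (452 reads) in 4T1-GMP, where it was 1.64-fold lower with an interval of 1.40 to 1.92. Despite these differences, the summed level of the group was similar, at 34.3 RPKM in NTB-GMP and 36.4 in 4T1-GMP. Mxd4 made up 61.2% of that sum in NTB-GMP and 35.1% in 4T1-GMP, whereas Mxd1 went from 13.8% to 27.5%, Mxi1 from 22.4% to 33.0% and Mxd3 from 2.6% to 4.4%. In 4T1-GMP the intervals of the levels of Mxd4 (11.6 to 14 RPKM) and Mxi1 (11.5 to 12.6 RPKM) overlapped and did not set a leading gene of the group.

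**Figure D2:**
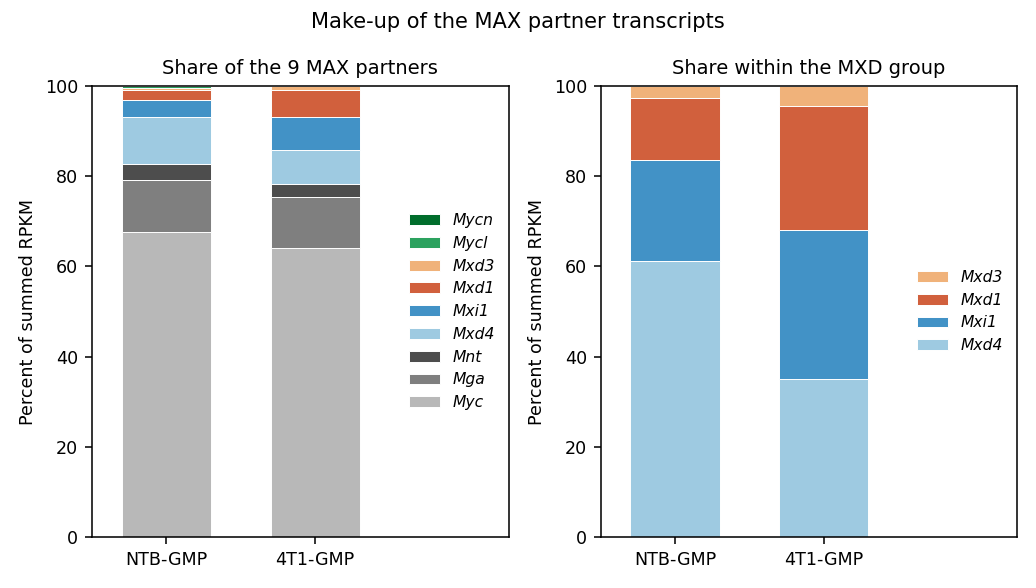
Percent of summed RPKM by gene in each library, over the 9 MAX partners (left) and within the MXD group alone (right). In the right panel Mxd4 takes 61.2% of the NTB-GMP bar and 35.1% of the 4T1-GMP bar, and Mxd1 takes 13.8% and 27.5%.

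MNT is the broadly expressed repressor of the network and MGA, its largest protein, joins MAX to a Polycomb complex. Mnt, on chromosome 11 from 74830920 to 74845725, stood at 7.26 RPKM with 339 reads in NTB-GMP and at 4.71 RPKM with 649 reads in 4T1-GMP, 1.54-fold lower with an interval of 1.35 to 1.76. Mga, on chromosome 2 from 119897228 to 119969581, had 23.8 RPKM (3371 reads) and 19.0 RPKM (7956 reads), 1.25-fold lower with an interval of 1.2 to 1.3. Long genes were more often lower in 4T1-GMP. When expressed genes were split by exon length into 4 bins of like size, 40.9% were higher in the longest bin, which held Mga, Mxd1, Mxi1 and Mxd4, against 65.0% in the shortest bin, which held Myc and Mxd3. The part of gene length in the Mga difference was not tested.

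**Figure D3:**
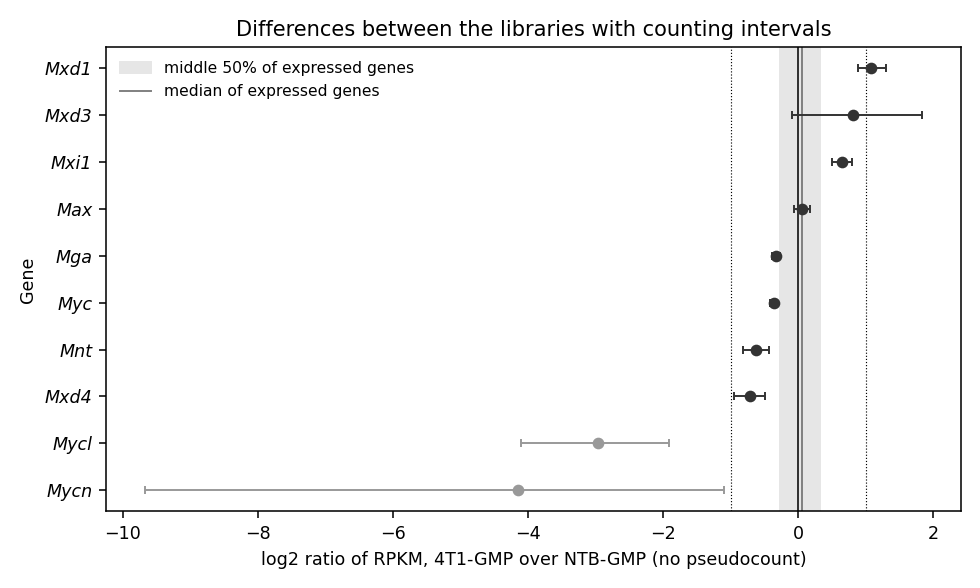
Log2 ratio of RPKM in 4T1-GMP over NTB-GMP for each member, without a pseudocount, with 95% Clopper-Pearson intervals on the reads. Gray points (Mycl and Mycn) had a mean under 1 RPKM, the gray band runs from the lower to the upper quartile of the expressed genes (-0.26 to 0.32), and dotted lines mark 2-fold. Mxd1 lies at 1.09 and Mxd4 at -0.72.

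Ratios between members within a library do not depend on the library size or on Rn45s. Such ratios were compared for 12 pairs, with exact conditional intervals on the reads. Transcripts of Myc outnumbered those of Mxd1 per length by 29.3 to 1 in NTB-GMP but by 10.7 to 1 in 4T1-GMP, a ratio 2.73-fold lower in 4T1-GMP (interval 2.36 to 3.18). The ratio of Myc to Mxi1 was 18.0 and 8.94, 2.02-fold lower (1.8 to 2.26). The ratio of Mxd1 to Mxd4 was 0.225 and 0.785, a change of 3.49-fold (2.82 to 4.32), and that of Mxi1 to Mxd4 was 0.366 and 0.942, a change of 2.58-fold (2.13 to 3.11).

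Against Mga, Mxd4 and Mnt, Myc was level or higher in 4T1-GMP. NTB-GMP had a ratio of Myc to Mga of 5.83 and 4T1-GMP had 5.65, and the interval of the change (0.92-fold to 1.03-fold) included none. The ratios of Myc to Mxd4 (6.60 and 8.42) and of Myc to Mnt (19.1 and 22.8) were 1.28-fold (1.08 to 1.5) and 1.2-fold (1.04 to 1.38) higher in 4T1-GMP. Against Max, Myc was 1.34-fold lower (1.22 to 1.47), with ratios of 3.71 and 2.77. The MYC genes made up 68.1% of the summed RPKM of the 9 MAX partners in NTB-GMP and 64.2% in 4T1-GMP, while the MXD group made up 16.7% and 21.7%, Mnt 3.5% and 2.8%, and Mga 11.6% and 11.3%.

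The members themselves can carry the E-box in their promoters. The motif searched was CACGTG, which reads the same on both strands, in the window from 250 bases before to 50 after the start of each gene (RefSeq, GRCm38.p6). A promoter was found for 9 members, not for Myc, and 3 of the 9 held the motif. The 9 include Mycl and Mycn, which were below the minimum for expressed genes. The motif was held by 12.5% of the 7988 expressed genes that had a promoter in the table, and by 8.09% of all 27025 genes that had one. All 3 sites are shown. Max was close to level and Mxd4 and Mnt were lower in 4T1-GMP, and a link between the motif and these differences was not tested. Each window is 30 bases, 5′ to 3′ on the strand of the gene, with the E-box in capitals. The windows lie at chr12:76962234-76962263 (minus strand), chr5:34187912-34187941 (minus strand) and chr11:74830789-74830818 (plus strand), and the motif begins 3, 219 and 123 bases before the start, respectively.
Max: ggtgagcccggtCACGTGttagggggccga
Mxd4: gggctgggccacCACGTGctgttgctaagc
Mnt: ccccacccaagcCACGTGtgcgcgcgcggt
The promoters of Mxd1, Mxd3, Mxi1, Mga, Mycl and Mycn did not hold these letters in the window, which says nothing of MYC or MXD binding elsewhere.

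Genes around the network were described by lists written from knowledge of the pathways. The MLX arm is a parallel network in which MLX takes the place of MAX. Mlx was higher in 4T1-GMP, at 20.3 RPKM in NTB-GMP and 34.4 in 4T1-GMP (log2 ratio 0.76 without a pseudocount, interval 0.61 to 0.92), while Mlxip, which encodes the glucose sensor MondoA, was lower, at 14.4 and 8.65 RPKM (log2 ratio -0.74 likewise, interval -0.88 to -0.59). Mlxipl, which encodes ChREBP, had 2 reads in each library.

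The list of MYC target genes, mostly factors of ribosome assembly, nucleotide supply and replication, was mainly higher in 4T1-GMP although Myc was not. Of its 58 genes, all expressed, 48 (82.8%) were higher and the median log2 ratio was 0.27, beside 54.7% and 0.05 for all expressed genes. None passed 2-fold. Without Rn45s in the library sizes, 40 of the 58 and 39.2% of all expressed genes were higher, and after quantile normalization these were 38 and 50.5%. The largest differences were those of Tmem97, a sterol-regulated membrane protein (38.7 and 73.6 RPKM, log2 ratio 0.93), Slc29a2, a nucleoside transporter (0.993 and 1.91 RPKM, 0.88, over the minimum only through 4T1-GMP), and Mrto4, a ribosome assembly factor (33.8 and 53.3 RPKM, 0.65). At the other end were Sord, which makes fructose from sorbitol (29 and 18.7 RPKM, -0.63), the phosphatase gene Dusp2 (11.0 and 8.92 RPKM, -0.31) and Ung, which removes uracil from DNA (15.6 and 12.7 RPKM, -0.29). Many target genes are short, with 19 in the shortest bin of exon length, where 16 were higher with a median of 0.36, beside 65.0% and 0.18 for all genes of that bin. In the next bin 19 of 20 were higher, beside 61.1%. In the bin after that 9 of 15 were higher, beside 52.5%, and in the longest bin all 4, beside 40.9%. The part of length in the count for the list was not tested.

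Genes that MYC is known to repress did not move as a block. Of the 8 expressed genes of that list of 9, 3 (37.5%) were higher and 5 lower, with a median log2 ratio of -0.36. Among all expressed genes, 54.7% were higher and the median was 0.05. Ndrg2 was past 2-fold higher (4.24 and 9.85 RPKM, log2 ratio 1.2). The lowest were Ndrg1 (8.77 and 4.89 RPKM, -0.83) and Hbp1 (12.6 and 8.28 RPKM, -0.59). Cdkn1a, which encodes the cell cycle inhibitor p21, was at 1.11 and 1.2 RPKM with 23 and 73 reads (interval of the log2 ratio -0.59 to 0.85), and Cdkn2b was listed at 0 in both libraries. Cebpa, a granulocyte lineage factor, was 1.28-fold lower, at 45.6 and 35.5 RPKM.

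The partners that carry out activation and repression differed less than the MXD genes. Among 19 coactivators and partners of MYC, 9 were higher and 10 lower, the median log2 ratio was -0.04 and none passed 2-fold. The acetyltransferase gene Crebbp (25.5 and 15.1 RPKM, -0.75) and Ep400 (35.4 and 23.5 RPKM, -0.59) were among the lowest, and the acetyltransferase gene Kat5 (10.5 and 14.3 RPKM, 0.45), Actl6a and Ruvbl2 (both 0.38) were the highest. Here too the longest genes were mostly lower: 7 of the 9 in the longest bin, with a median of -0.48. Over all genes of that bin, 40.9% were higher and the median was -0.08. The part of length in the count for this list was not tested. Zbtb17, whose product MIZ1 pairs with MYC in repression, was at 9.12 and 8.47 RPKM (-0.11).

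In the SIN3-HDAC corepressor, which MXD proteins and MNT recruit, 8 of 19 genes were higher and the median log2 ratio was -0.07. The scaffold genes Sin3a (29.9 and 27.4 RPKM, -0.13) and Sin3b (15.3 and 14.7 RPKM, -0.07) were close to level. Arid4a (-0.39) and Ing2 (-0.32) were among the lowest, and Brms1 (0.46), Rbbp7 (0.23) and Hdac2 (0.21) were the highest, with Hdac2 at -0.05 after quantile normalization. Of the 14 genes of the Polycomb complex that MGA joins, 10 were higher and the median was 0.11. With Rn45s left out, 6 were higher and the median was -0.06. For all expressed genes, 54.7% were higher with a median of 0.05, and 39.2% with a median of -0.11 without Rn45s. Pcgf6, the subunit particular to that complex, was at 7.44 and 7.42 RPKM (-0.01, or 0.02 after quantile normalization). Tfdp1 (0.52), Yaf2 (0.50) and Rybp (0.45) were highest, and Tfdp2 (-0.77), Rnf2 (-0.28) and Cbx1 (-0.07) lowest.

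**Figure D4:**
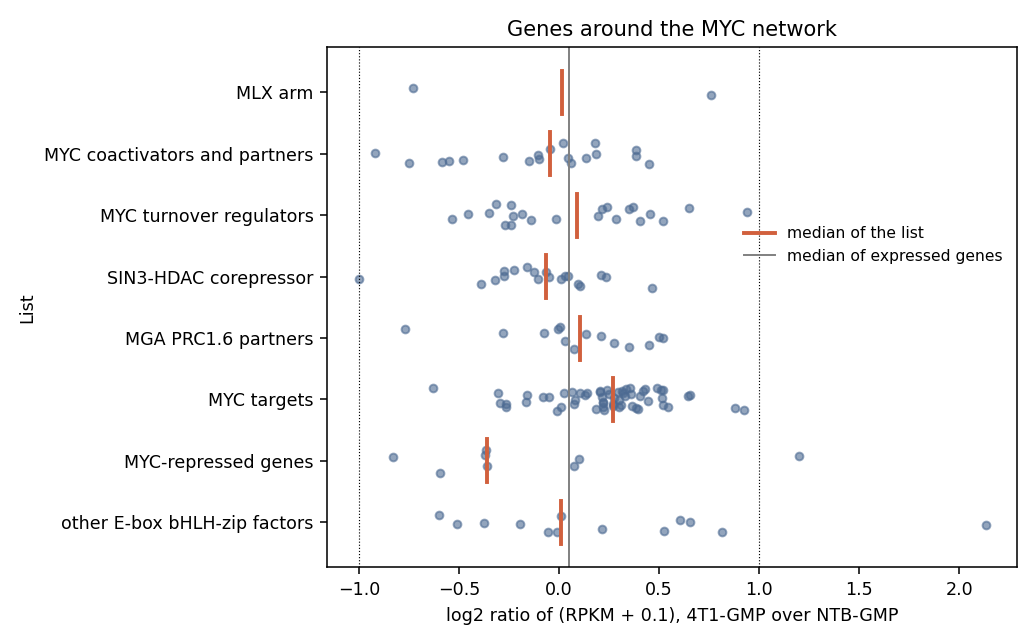
Log2 ratio on the log2(RPKM + 0.1) scale for the expressed genes of each list around the network (blue points, 1 per gene, spread vertically at random), with the median of the list (orange) and of all expressed genes (gray). Dotted lines mark 2-fold, and 48 of the 58 MYC target genes lie above 0.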

How the data were processed

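Bulk RNA-Seq of sorted GMPs was deposited as 1 table of RPKM per library, made by the authors, with 24421 symbols. The submitters' processing notes name CASAVA 1.8.2, cutadapt 1.2.1, TopHat2 2.0.13, Picard 1.97, HTSeq 0.6.1, edgeR 3.12.1 and the build mm10, without roles. Gene lengths, annotation and strand setting are not given in the sources used here. RPKM depend on the reads in the library size and on the gene model.

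The members and lists were chosen with earlier results of these data known. Library sizes were found as the value that makes the RPKM of genes with few reads whole multiples of 1 read, and reads as the smallest whole numbers that fit both libraries, for all 14833 symbols above 0. Their sum was 9486697 for NTB-GMP and 26353075 for 4T1-GMP. Recovered reads are lower bounds, which by itself widens the counting intervals. Reads that are not independent molecules act the other way, and differences between mice are not covered, so the intervals can be too narrow. The procedure was tested on simulated data.

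Ratios used log2(RPKM + 0.1) for genes with a mean of at least 1 RPKM, and a 2-fold threshold. Member intervals are 95% Clopper-Pearson (ratios), exact Poisson (levels) and exact conditional (pairs of members). Named genes were the members, the 3 largest and 3 smallest log2 ratios of each list (2 and 2 for lists under 10 expressed genes, all of the MLX arm) and 9 genes fixed by name. Of these named genes, 2 are not reported here. Alternatives were pseudocounts of 1 and 0.01, library sizes without Rn45s, scaling to a median ratio of 1, quantile normalization, all genes above 0, a minimum of 5 RPKM, a threshold of 1.5-fold, and shares without Mga or by reads. Positions and exon lengths came from GENCODE M21 (GRCm38, the assembly of mm10), with a length for 96.5% of expressed genes. Promoters came from RefSeq. Python 3.11.15, numpy 2.4.6, pandas 2.3.3 and scipy 1.17.1 were used.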

Additional observations from a re-analysis of the deposited data

How the results depend on the processing

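A single library per group limits every value, and counting intervals do not stand in for replicates. Depth limits Mycn, Mycl and Mxd3, which had 6, 29 and 12 reads in NTB-GMP. Of the 8 expressed members, 1 was past 2-fold, against 0 with a pseudocount of 1 (5.16% of expressed genes) and 0 without Rn45s in the library sizes (9.25%). The count was 3 of 10 with all genes above 0, where Mycn and Mycl were included and 13.3% of all genes passed, and 5 of 8 at 1.5-fold, where Mxd1 and Mxi1 were higher, Mxd4 and Mnt lower (21.4% of expressed genes) and the fifth was Mxd3, expressed only through 4T1-GMP. The median log2 ratio of the MYC target list, 0.27, became 0.10 with Rn45s left out, by the common shift, and 0.14 after quantile normalization, for which the cause was not tested. The share of MYC genes among the 9 MAX partners was 77.0% in NTB-GMP and 72.4% in 4T1-GMP without Mga, and 42.4% and 38.2% by reads not divided by length, where the long Mga transcript counts for more. These read shares are rough, since recovered reads are too low for some genes by factors that can differ between genes. The reads of Mxd4 were fitted with a length of 1179 bases, beside 8483 exon bases in GENCODE. Of 295 values for 59 named genes under 5 alternatives, 248 stayed within the reach of the reads interval, 47 moved beyond it, and 5 changed sign, of which 2 were those of Max. No paired analysis was possible because there was a single library of each kind, which also left no replicate to omit.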

Other observations

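Of a list of 23 genes that set how long the MYC protein lasts, 22 were expressed. In 4T1-GMP 11 of these were higher and 11 lower. Their median log2 ratio was 0.09 on the log2(RPKM + 0.1) scale (-0.07 with Rn45s left out), beside 0.05 (-0.11) for all expressed genes. Pim1, a kinase induced by cytokines, was highest (35.5 RPKM in NTB-GMP and 68.0 in 4T1-GMP, log2 ratio 0.94), followed by the mitotic kinase genes Aurka (22.2 and 34.9 RPKM, 0.65) and Plk1 (24.1 and 34.6 RPKM, 0.52). Fbxw7, whose product marks MYC for destruction, was lowest (7.67 and 5.27 RPKM, -0.53), before Btrc (3.88 and 2.81 RPKM, -0.45) and Pim2 (2.79 and 2.17 RPKM, -0.35, with 58 and 133 reads). Skp2, also a ubiquitin ligase gene for MYC, was at 11.8 and 11.7 RPKM (-0.02).

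Other factors that bind E-boxes or related sites were mixed, with 7 of 13 expressed genes higher. Their median was 0.01 (-0.15 with Rn45s left out), beside 0.05 (-0.11) for all expressed genes. Bhlhe40, a repressor of the circadian and immune systems, showed the largest ratio of the list, with 23 reads in NTB-GMP (0.726 RPKM) against 329 in 4T1-GMP (3.52 RPKM), and its log2 ratio was 2.28 without the pseudocount (interval 1.67 to 2.96). It passed the minimum of 1 RPKM only through 4T1-GMP. Tfec (28.5 and 50.2 RPKM, 0.81) and Clock (1.6 and 2.58 RPKM, 0.65) followed, and Tfe3 (4.62 and 3.02 RPKM, -0.60), Arntl (4.90 and 3.41 RPKM, -0.51) and Tfap4 (19.2 and 14.8 RPKM, -0.38) were lowest.

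Of 53 MYC target genes with a promoter in the RefSeq table, 15 (28.3%) held CACGTG in the window, compared with 12.5% of expressed genes. Those with the motif had a median log2 ratio of 0.22, with 12 of 15 higher, and those without it had 0.29, with 31 of 38 higher.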
